A study of Mus musculus and Homo sapiens
Mus musculus with 16 samples.

Results

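The 4 Sall genes of the mouse, Sall1, Sall2, Sall3 and Sall4, were followed in H3K4me3 PLAC-seq of fetal forebrain. A listed interaction was assigned to a Sall gene when either of its 10 kb bins overlapped the gene body in mm10, which gave 100 distinct bin pairs among the 58543 listed in any library. Forebrain was taken at embryonic day E12.5 (2 libraries) and at E16.5 (2 libraries). The labels name no mutation or treatment in either stage, and the embryos' strain, age beyond the stage and pooling are not given in them. PLAC-seq ligates stretches of DNA that are near each other in the nucleus and then pulls down those carrying a chosen histone mark. H3K4me3, used here, sits at active and poised promoters. Each list holds only bin pairs that the authors called, with the number of read pairs behind each. Sall1 lies on chromosome 8 (89027242 to 89044162), Sall2 on chromosome 14 (52311177 to 52328670), Sall3 on chromosome 18 (80966989 to 80987021) and Sall4 on chromosome 2 (168748332 to 168767201).

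SALL proteins are transcription factors with several pairs of C2H2 zinc fingers, related to the spalt protein of the fruit fly. They act mostly as repressors, and a short motif at the start of the protein binds the NuRD complex, which combines histone deacetylases with a chromatin remodeller. Sall1 is known in forebrain progenitors, in kidney formation and, later, as a regulator of microglia. Sall3 is known in the nervous system and limbs, Sall4 in embryonic stem cells, germ cells and limb buds, and Sall2 in neurons and eye development.

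The gene starts decide which bin carries the promoter. The RefSeq promoter table (GRCm38.p6, the assembly of mm10) matched 2 of the 4 members. Sall1 has 3 annotated starts on the minus strand, at 89044162, 89043512 and 89042862, and all fall in the bin from 89040001 to 89050000. Sall2 has 2, on the minus strand, and they fall in different bins: the outer start at 52328670 in the bin from 52320001 to 52330000 and the inner start at 52316323 in the bin from 52310001 to 52320000. The 250 bases before both Sall2 starts are shown because its listed interactions came from the bin of the outer start alone, and because the 2 windows differ widely in base composition. Capitals mark a TATA box (letters TATAAA) and a CCAAT box, searched on both strands. A GC box (letters GGGCGG) was searched too and is in neither stretch, and the marked motifs do not overlap.

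Sall2 outer start, chr14:52328671-52328920, minus strand: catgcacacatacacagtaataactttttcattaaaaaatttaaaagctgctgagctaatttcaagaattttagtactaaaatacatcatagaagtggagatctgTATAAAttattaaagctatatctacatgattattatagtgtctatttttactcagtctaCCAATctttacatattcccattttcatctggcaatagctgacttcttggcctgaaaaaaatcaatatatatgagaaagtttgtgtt
Sall2 inner start, chr14:52316324-52316573, minus strand: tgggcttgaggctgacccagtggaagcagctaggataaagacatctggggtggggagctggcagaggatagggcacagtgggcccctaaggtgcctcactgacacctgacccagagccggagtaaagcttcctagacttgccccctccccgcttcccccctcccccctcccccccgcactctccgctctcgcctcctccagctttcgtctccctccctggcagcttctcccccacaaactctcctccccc

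The windows around the Sall1 starts (250 bases before to 50 after) became richer in G and C from the outer to the innermost start, at 57.3%, 70.0% and 79.7%. They held 18, 27 and 39 CpG dinucleotides, against a median of 7 in the 32851 windows of the table. The outer Sall2 window was 30.3% G and C with 1 CpG, while the inner one was 65.0% with 10. Of all windows, 99.0% had at least the G and C content of the outer Sall2 window and 1.18% had at least that of the innermost Sall1 window. The letters of the GC box occurred in 2 of the 3 Sall1 windows, 4 times and 1 time, and in 35.7% of all windows. The letters of the CCAAT box were in the outer Sall1 window and the outer Sall2 window, and in 37.4% of all windows. The letters of the TATA box were found in the outer Sall2 window, and in 13.6% of all windows. These are matches of letters, not measured sites.

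At E12.5 the lists held 18413 and 16075 interactions, and at E16.5 they held 35291 and 36794. They were supported by 405491 to 911710 read pairs per library. Sequencing depth is unknown, and absence from a list does not show absence of contact. Whether replicates are separate litters is not labelled, and p-values cover the spread of these libraries alone. As a check of the tissue, radial glia genes had 154 and 141 listed interactions in sum at E12.5, against 133 and 103 at E16.5, neuronal genes 29 and 30 against 178 and 140, and hindbrain genes 84 and 53 against 31 and 13. In every library most of the hindbrain sum came from Hoxb3 and Hoxb4, genes of the same cluster. Hoxa2 had only 2 to 4 per library, without a clear drop, and En2 had no listed interaction. The hindbrain sum thus describes mainly that cluster. Microglia genes had 2 to 6 per library, with the defining markers Cx3cr1, P2ry12 and Csf1r at 0 in every library. Endothelial genes had 0 to 2. These are bulk libraries of DNA pulled down by H3K4me3. Fewer cells of a type, weaker contacts per cell and less of the mark cannot be told apart in them.

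Sall1 was the well-connected member. It had 41 and 52 listed interactions in the E12.5 libraries against 45 and 38 in the E16.5 ones, a mean of 46.5 ± 7.78 (SD, n = 2) against 41.5 ± 4.95 (SD, n = 2). These raw numbers overlap between the stages. Because the E16.5 lists were longer, the Sall1 share of each list was 0.223% and 0.323% in the E12.5 libraries against 0.128% and 0.103% in the E16.5 ones, with no overlap. Few genes had as many: of the 4036 gene bodies tested, 1.14% and 0.595% reached the Sall1 number in the E12.5 libraries, against 2.58% and 4.24% in the E16.5 ones.

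Scaled to the library total (TMM), the number for Sall1 fell 2.01-fold (log2 change -1.01 with an SE of 0.22; Benjamini-Hochberg adjusted p = 0.00702, edgeR quasi-likelihood fit). Over all tested gene bodies, 14.5% passed in either direction, 11% were higher and 3.49% were lower, and the median log2 change was 0.25. A change at or below that of Sall1 was found in 345 of the 4036. With every list cut to the 16075 interactions of lowest FDR, Sall1 had 38 and 52 in the E12.5 libraries against 19 and 21 in the E16.5 ones, and the call held (log2 change -1.05, adjusted p = 0.0104). The call ended without E12.5 replicate 1 (adjusted p = 0.240) or without E12.5 replicate 2 (0.101), with DESeq2 (0.140), with read pairs summed in place of interactions (0.0655) and with each cluster of neighbouring interactions counted once (log2 change -0.29, adjusted p = 0.908). By the same fit 4 of 7 tested radial glia and 2 of 3 hindbrain genes were lower, and 3 of 5 neuronal genes were higher. The 2 hindbrain genes were Hoxb3 and Hoxb4, which belong to 1 cluster. The part of these lists in the Sall1 result was not tested.

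**Figure D1:**
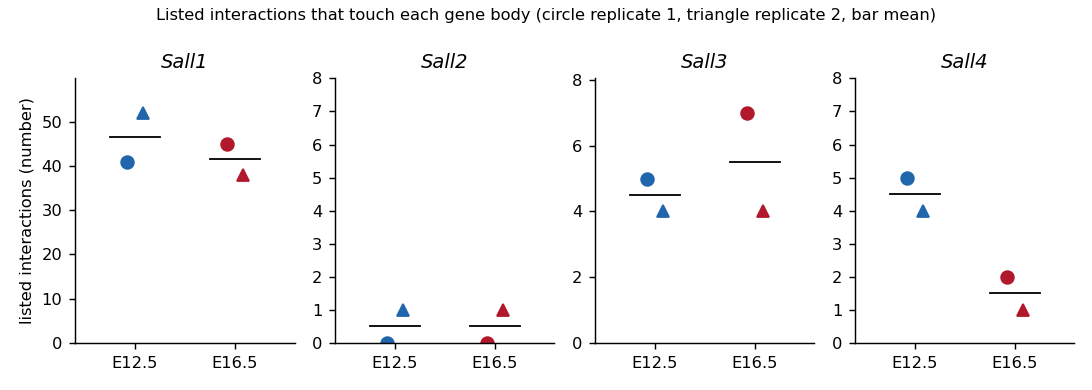
Number of listed interactions that touch each Sall gene body (vertical axis, a separate scale per panel) in the E12.5 and E16.5 libraries; circles are replicate 1, triangles replicate 2 and bars the stage mean. Sall1 lies between 38 and 52 in all libraries, Sall3 between 4 and 7, Sall2 at 0 or 1, and Sall4 at 5 and 4 against 2 and 1.

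Sall4, the stem cell member, had 5 and 4 listed interactions in the E12.5 libraries against 2 and 1 in the E16.5 ones, so the raw numbers did not overlap. Its relative number at E16.5 was 4.96-fold lower, which did not pass (log2 change -2.31 with an SE of 0.81, adjusted p = 0.0674 by edgeR). With the library total in place of TMM it passed (log2 change -2.44, adjusted p = 0.0455), and with lists of equal length, at 3 and 4 against 2 and 1, the log2 change was -1.05 (adjusted p = 0.564). The bin from 168760001 to 168770000, which holds the higher-coordinate end of Sall4 and part of the lncRNA Gm14261, had 3 and 4 against 1 and 1. The remaining 3 were in the bin from 168740001 to 168750000, which Sall4 shares with the ATPase gene Atp9a. No interaction touched the bin between them.

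The Sall4 partners lay 60 to 140 kb away on the higher-coordinate side, between 168820001 and 168890000, apart from 1 at 490 kb on the other side that was listed in E16.5 replicate 1 from the shared bin. Of the 8 bin pairs, 1 was listed in both E12.5 libraries and in no E16.5 library, the pair 100 kb apart with 30 and 33 read pairs. The pair at 110 kb had 44 and 36 read pairs in the E12.5 libraries and 30 in E16.5 replicate 2, and was not listed in E16.5 replicate 1. The pair at 80 kb was listed in 1 library per stage, with 43 and 44 read pairs. In the authors' deposited values these counts were 2.18 to 3.47 times the expected count. None of the Sall4 partner bins overlapped a protein-coding gene.

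Sall3 had 5 and 4 listed interactions in the E12.5 libraries against 7 and 4 in the E16.5 ones. Its relative number did not pass (log2 change -0.54 with an SE of 0.57, adjusted p = 0.630 by edgeR). All 12 Sall3 bin pairs reached toward higher coordinates, 170 to 950 kb away. Summed over the gene body and both libraries of a stage, most of its read pairs went to 2 neighbouring bins. The bin from 81920001, which holds part of the lncRNA Gm30513, took 37 at E12.5 and 41 at E16.5, and the bin from 81910001 took 28 and 47. The order of these bins differed between the replicates of each stage. Both of these bins were listed with the bin at the higher-coordinate end of Sall3 in all 4 libraries.

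The Sall3 contact at 930 kb had 20 and 8 read pairs in the E12.5 libraries against 22 and 17 in the E16.5 ones, and the one at 940 kb 17 and 11 against 14 and 9. The stages overlapped for both. Neither passed in the test of read pairs over the 6875 contacts listed in all libraries (log2 change 0.11 with an SE of 0.31, and -0.64, SE 0.29; adjusted p = 0.888 and 0.330 by edgeR). Their counts were 4.01 to 10.7 times the authors' expected count. Of the other 10 Sall3 pairs, 9 were listed in 1 library only.

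Sall2 had 0 and 1 listed interactions in the E12.5 libraries against 0 and 1 in the E16.5 ones, and was too sparse to test. The E12.5 pair, 30 kb apart with 38 read pairs, reached a bin shared by Tox4, an HMG-box protein gene, and Mettl3, an RNA methyltransferase gene. The E16.5 pair, 50 kb apart with 31 read pairs, reached a bin with the small GTPase gene Rab2b and Tox4 again. Both came from the bin of the outer Sall2 start, the window of low G and C content shown above, and none from the bin of the inner start. Both counts were about 2 times the expected count (2.12 and 2.01), and the lowest ratio in any of the 4 lists was 2.00.

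The Sall1 interactions came mostly from the bin that holds its 3 starts. This bin had 27 and 40 listed interactions in the E12.5 libraries against 24 and 28 in the E16.5 ones. The middle bin of the gene had 11 and 9 against 15 and 6, and the bin at the lower-coordinate end 3 and 3 against 6 and 4. The start bin also holds the lower-coordinate part of the lncRNA Gm3134, so the 2 genes cannot be told apart there.

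Sall1 partners lay almost all on one side and far away. Of the 78 distinct Sall1 bin pairs, 74 reached toward higher coordinates, which is upstream of this minus-strand gene, and the other 4 were listed only in E12.5 replicate 2. The median distance was 430 and 420 kb in the E12.5 libraries against 450 and 460 kb in the E16.5 ones, against 260 to 300 kb in the whole lists. Pairs at most 200 kb apart made up 31.0% to 38.2% of the whole lists, but Sall1 had 2 and 1 of them against 0 and 1. The difference between the stage means of the median distance was 30 kb (two-sided exact permutation p = 0.333, the smallest that 2 libraries against 2 can give), and with lists of equal length it turned to -37.5 kb. Weighted by read pairs, the medians were 290 and 330 kb against 430 and 420 kb, a difference of 115 kb.

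The 48 Sall1 partner bins spanned 88780001 to 89800000 and overlapped no protein-coding gene. Of the 41447 bins in any list, 61.0% did. That share is no like-for-like background, because it takes in bins at either end of a pair, promoter bins included. The 48 leave out the bins of Sall1 itself, and a share for the partner bins of other genes was not computed. Of the 48, 40 overlapped no gene of any kind in the table. The nearest protein-coding genes on either side are Cyld, a deubiquitinase gene, and Tox3, an HMG-box gene. Tox3 had 25 and 27 listed interactions in the E12.5 libraries against 27 and 33 in the E16.5 ones, and Cyld 0 and 0 against 3 and 1, and none of either reached a bin that Sall1 used on the higher-coordinate side. Within the stretch from 89020001 to 89800000, every listed interaction at E12.5 (41 and 48) touched Sall1, as did 45 of 48 and 38 of 39 at E16.5. The pull-down favours pairs with an H3K4me3 end, and Sall1 is the sole protein-coding gene there, so these counts are a description.

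**Figure D2:**
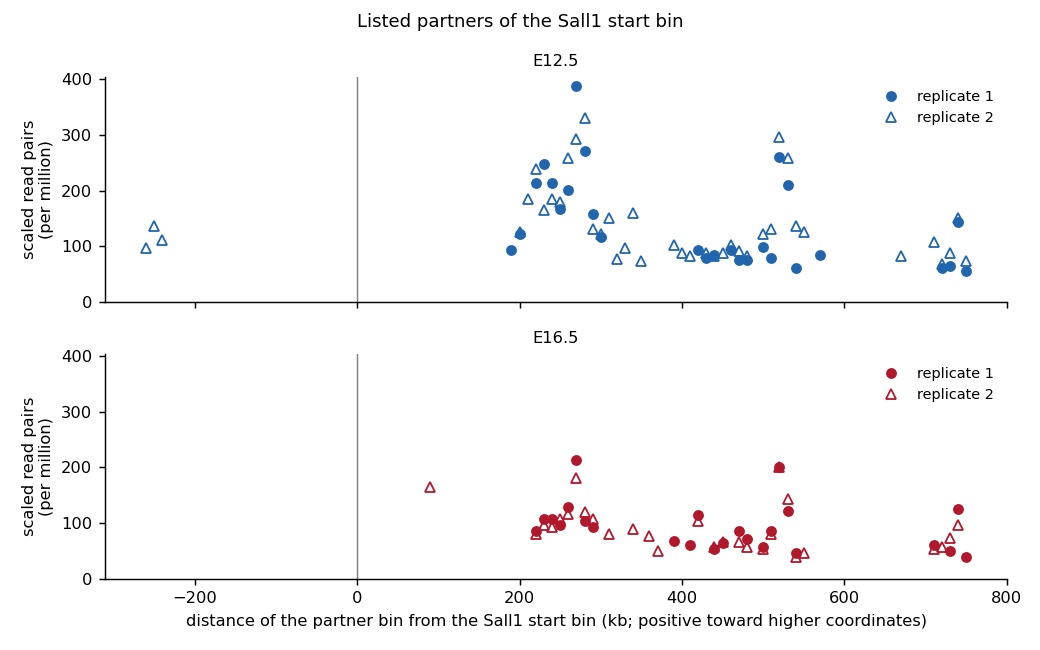
Listed partners of the Sall1 start bin, with the distance in kb on the horizontal axis and read pairs in CPM of the contacts listed in all libraries on the vertical axis; E12.5 is above and E16.5 below, with filled circles for replicate 1 and open triangles for replicate 2. Points pile up near 270, 520 and 740 kb in all libraries, and the tallest E12.5 points exceed the E16.5 ones at the same distance.

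Partners with many read pairs lay around 3 places, called the nearest, middle and far groups here. The nearest, from 89260001 to 89340000, had its highest count at the bin from 89310001, 270 kb from the start bin, with 83 and 60 read pairs in the E12.5 libraries against 60 and 47 in the E16.5 ones. The middle group was highest at the bin from 89560001, 520 kb away, with 56 and 61 against 56 and 52. The far group was highest at the bin from 89780001, 740 kb away, with 31 and 31 against 35 and 25. Summed over the gene body, the bin from 89310001 led the bin from 89560001 in replicate 1 of both stages (122 against 87 read pairs at E12.5, 107 against 78 at E16.5), and the order was the other way in replicate 2 of both (60 against 90, and 47 against 90). None of these bins overlaps an annotated gene in the table.

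Sall1 pairs were listed in all libraries more often than pairs in general, 22 of 78 (28.2%) against 11.7% of all pairs. Another 4 were listed in both E12.5 libraries and in no E16.5 library (5.13%, against 1.83% of all pairs): these were the start bin with the bins from 89240001 (26 and 26 read pairs), 89340001 (25 and 25), 89470001 (17 and 18) and 89500001 (20 and 21). In the reverse class was 1 Sall1 pair (1.28%, against 15.2% of all pairs), between the lower-coordinate end bin and the bin from 89570001, with 10 and 16 read pairs. The shares are descriptions, since neighbouring pairs of a gene are not independent, and 30 of the 78 were listed in 1 library only. Of the pairs listed in either library of a stage, both listed 29 of 64 at E12.5 and 26 of 57 at E16.5.

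Read pairs could be compared for the 22 Sall1 contacts listed in all libraries, of which 18 came from the start bin. After scaling by the total over all 6875 such contacts (TMM), 9 of the 22 fell at E16.5, 0 rose and 13 did not pass. Of all 6875 contacts, 4.58% were lower and 5.88% higher by the same edgeR test at an adjusted p of 0.05. The median log2 change was -0.68 for the 22 (range -1.44 to -0.13) and -0.01 for all. In 17 of the 22 both E16.5 libraries had a lower scaled value than both E12.5 libraries, and in 0 of them a higher one; the lower pattern held for 27.2% of all contacts. For 9 of the 22, both E16.5 libraries had fewer unscaled read pairs, a pattern of 7.87% of all contacts. The 22 share the start bin or the middle bin of Sall1, and many partner bins adjoin, so the contacts are not independent. Their counts beside the shares of all contacts, here and below, are descriptions.

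The largest declines by log2 change were in the nearest group. The contact at 220 kb had 46 and 49 read pairs in the E12.5 libraries against 24 and 21 in the E16.5 ones, a 2.71-fold relative decrease (log2 change -1.44 with an SE of 0.27, adjusted p = 0.000170 by edgeR). The contact at 280 kb had 58 and 68 against 29 and 31, a 2.69-fold decrease (log2 change -1.43 with an SE of 0.25, adjusted p = 8.48e-05). For both, the E16.5 counts lay under the E12.5 counts even before scaling. These 2 passed in each fit that left out 1 library; the number of lower Sall1 and Sall3 contacts was 5, 5, 6 and 3 without E12.5 replicate 1, E12.5 replicate 2, E16.5 replicate 1 and E16.5 replicate 2. DESeq2 gave an adjusted p to 10 of the contacts and called 2 lower, the same 2.

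The remaining lower contacts were at 230 kb (53 and 34 against 30 and 25), 240 kb (46 and 38 against 30 and 24), 260 kb (43 and 53 against 36 and 30) and 270 kb (83 and 60 against 60 and 47) in the nearest group. In the middle group they were at 500 kb (21 and 25 against 16 and 14), 530 kb (45 and 53 against 34 and 37) and 540 kb (13 and 28 against 13 and 10). The peak of the middle group at 520 kb did not pass (log2 change -0.48 with an SE of 0.23, adjusted p = 0.195), nor did the contact at 740 kb (log2 change -0.41 with an SE of 0.27, adjusted p = 0.367) or the one at 730 kb beside it. The contact at 500 kb passed in 0 of the 4 edgeR fits that left out 1 library, and the one at 540 kb in 1. All 4 contacts of the middle gene bin, at 270, 530, 540 and 750 kb, missed the threshold.

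**Figure D3:**
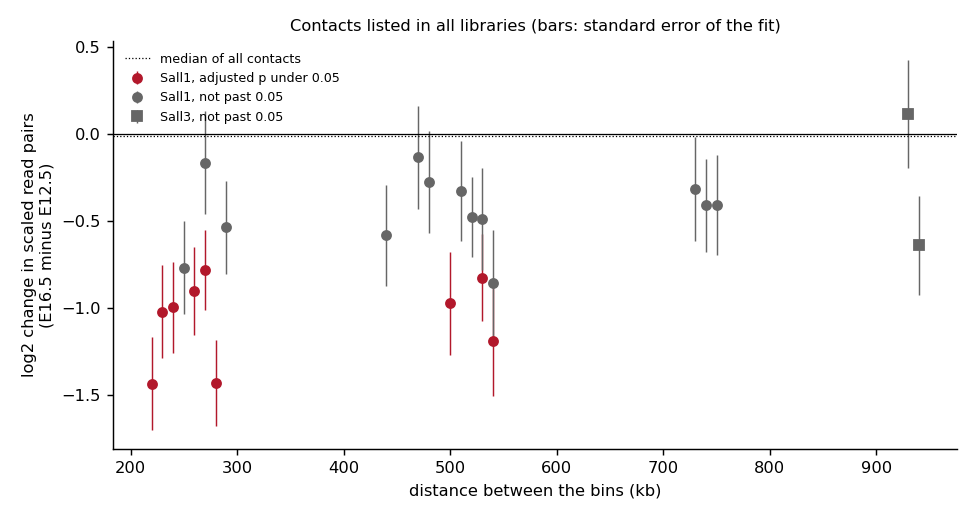
Log2 change in scaled read pairs (E16.5 minus E12.5, vertical axis, with the standard error of the fit) against the distance between the bins in kb for the 22 Sall1 and 2 Sall3 contacts listed in all libraries; red points passed an adjusted p of 0.05. All Sall1 points lie below 0, from -1.44 to -0.13, and 6 of the 9 red points lie under 300 kb.

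By distance, 9 Sall1 contacts were under 300 kb apart, with a median log2 change of -0.90 and 6 lower calls, and 13 were farther apart, with a median of -0.48 and 3 lower calls. Over all contacts the medians were -0.06 and 0.05 for the same distances, and 5.58% and 3.47% were lower. Within each library, contacts under 300 kb held 56.4% and 53.0% of the Sall1 read pairs in contacts listed everywhere in the E12.5 libraries, against 47.8% and 48.5% in the E16.5 ones. The mean was 54.7% ± 2.37 (SD, n = 2) against 48.1% ± 0.503 (SD, n = 2). Over all 6875 contacts the same share also was lower at E16.5, with 64.3% and 65.4% against 61.4% and 62.9%. Of the interactions in the whole lists, 56.0% and 56.8% against 48.5% and 51.2% were under 300 kb apart. The limit of 300 kb was set after the values were seen, so the split is given without a test. With read pairs scaled separately in 10 distance bins, 11 of the 24 Sall1 and Sall3 contacts were lower, beside 326 of all 6875.

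The authors' expected count moved in the same direction as the read pairs. Over the 22 contacts, the observed read pairs were 736 and 724 in the E12.5 libraries against 584 and 528 in the E16.5 ones, and the expected ones 143.1 and 135.7 against 130.6 and 111.1. As a share of all 6875 contacts, the observed part went from 0.350% and 0.354% to 0.205% and 0.202%, and the expected part from 0.275% and 0.268% to 0.203% and 0.195%. The ratio of observed to expected was 5.14 and 5.34 in the E12.5 libraries against 4.47 and 4.75 in the E16.5 ones, while over all contacts it was 4.04 and 4.05 against 4.42 and 4.58. With the expected count as an offset in the fit, 0 of the 24 Sall1 and Sall3 contacts passed by edgeR (2 with an unadjusted p under 0.05), and over all contacts 18 were higher and 0 lower. How the authors computed it is not given in the sources used here.

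In this ratio the contacts differed among themselves. Both E16.5 libraries were below both E12.5 libraries for 7 of the 22 Sall1 contacts and above for 2, while 13 overlapped; over all contacts, 12.8% were below and 31.2% above. The contact at 220 kb had ratios of 3.62 and 4.40 in the E12.5 libraries against 2.24 and 2.31 in the E16.5 ones, and the one at 280 kb 6.38 and 7.52 against 3.80 and 4.39. The contact at 270 kb had 7.63 and 6.26 against 7.63 and 6.68. The contact at 520 kb had 9.62 and 10.1 against 11.5 and 12.0, with no overlap and higher at E16.5. Summed by distance, the ratio was 4.78 and 4.75 against 3.73 and 4.07 under 300 kb, and 5.69 and 6.20 against 5.46 and 5.64 beyond.

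**Figure D4:**
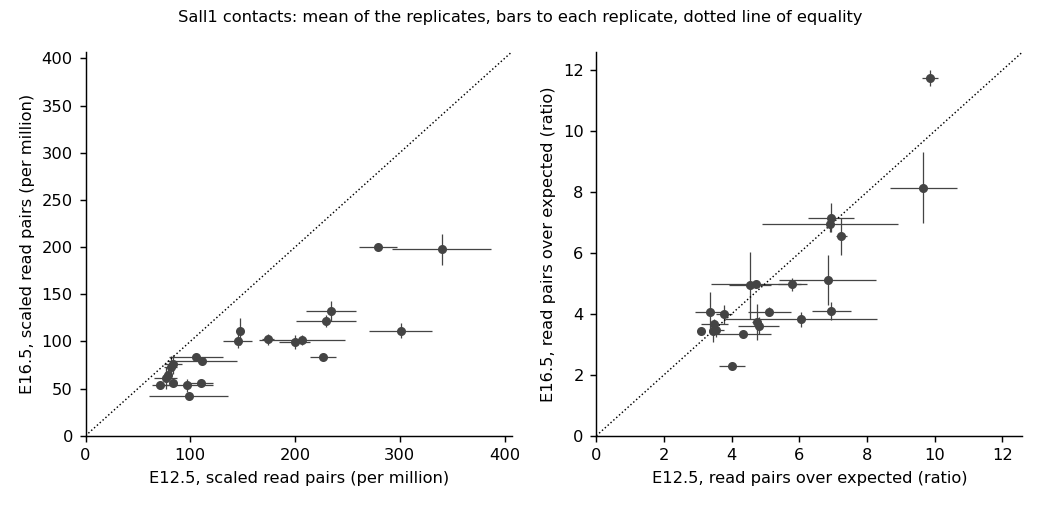
Each of the 22 Sall1 contacts, with E12.5 on the horizontal and E16.5 on the vertical axis, as scaled read pairs in CPM (left) and as read pairs over the authors' expected count (right); points are means of the replicates, bars reach the replicates and the dotted line marks equality. On the left all points lie below the line; on the right they lie around it, with the contact of 11.5 and 12.0 at E16.5 above it.

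Genes with the most similar numbers across the 4 libraries were looked up by the Euclidean distance of log2 CPM. For Sall1 they were Prdm16, a zinc finger regulator gene (39 and 41 against 37 and 38, distance 0.43), Camkmt (54 and 51 against 52 and 40, distance 0.44) and Fggy (42 and 38 against 44 and 38, distance 0.44). For Sall3 they were Barx1, a homeobox gene with exactly the same 4 numbers, Tmem209 and Fblim1. For Sall4 they were Tpx2, a spindle protein gene (4 and 4 against 2 and 1), and the histone genes H3c3 and H2bc3 (5 and 4 against 3 and 1 for both).

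The genes of the NuRD complex, which SALL proteins recruit, had few listed interactions. Of 14 autosomal NuRD genes, 1 had enough to test, the remodeller gene Chd5 (2 and 2 against 5 and 2), and it did not pass (log2 change -0.04 with an SE of 0.90, adjusted p = 0.989 by edgeR). The remodeller gene Chd4 had 5 and 1 in the E12.5 libraries against 0 and 0 in the E16.5 ones, and the histone-binding gene Rbbp4 3 and 3 against 1 and 2. Gatad2b went the other way, with 1 and 0 against 5 and 3. The numbers of Chd3, Mta2, Mta3 and Gatad2a overlapped between the stages, and 6 genes, among them Hdac1, Hdac2 and Mta1, had none in any library. Summed over the 14, the numbers were 17 and 12 against 19 and 15. Over all 20665 autosomal protein-coding genes, 4036 had enough to test, and 9754 entered the fit run without a minimum sum. Few or no listed interactions were thus common among genes, and whether the NuRD genes differ from the rest was not tested.

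Of 11 pluripotency and germ cell genes known to work with Sall4, 4 were tested, and 1 rose, 1 fell and 2 did not pass, where 11% of all tested gene bodies rose and 3.49% fell. Klf4 rose from 4 and 2 to 15 and 21 (log2 change 1.71 with an SE of 0.46, adjusted p = 0.0223). Sox2, which is also a gene of neural progenitors, had 59 and 61 against 63 and 49 and fell relative to the library total (log2 change -0.94 with an SE of 0.19, adjusted p = 0.00479). Tfap2c, with 19 and 13 against 19 and 14, and Klf5, with 2 and 0 against 5 and 12, did not pass (adjusted p = 0.119 and 0.123). The median log2 change of the 4 was 0.46, beside 0.25 for all gene bodies. Without E12.5 replicate 1 no gene body passed by edgeR, these 2 included (747 of all had an unadjusted p under 0.05). Nanog, Zfp42, Lin28a and Prdm14 had no listed interaction in any library.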

How the data were processed

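H3K4me3 PLAC-seq of mouse fetal forebrain was analysed in 4 of the 16 samples; the 12 single-cell libraries were not used here. Crosslinked tissue was digested with MboI, ligated and enriched with an H3K4me3 antibody, per the labels' protocols. The build was mm10 and the tools included BWA and SAMtools, per the submitters' processing notes; the caller is not given in the sources used. The deposited values, per the file headers, are the count of read pairs per pair of 10 kb bins, the authors' expected signal for it, an FDR (q-value) and the −log10 p of its cluster. All listed interactions have an FDR under 0.01 and lie on 19 autosomes, 20 to 1000 kb apart, called per library.

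Interactions were counted per gene body for 20665 autosomal protein-coding genes (RefSeq, GRCm38.p6), and 4036 with a sum of at least 10 were tested. Read-pair counts were tested for the 6875 bin pairs listed in all 4 libraries. The tool was edgeR 4.0.16 under R 4.3.3 (TMM, robust quasi-likelihood, stage as the sole term, Benjamini-Hochberg at 0.05). A change is the E16.5 value minus the E12.5 value, and the SE is the log2 change over the root of F. On simulated data with 2 libraries per stage, the gene body fit recovered 10% of changes of 1 and 36% of changes of 2 on the log2 scale, and the contact fit 32% and 87%. The simulation had a preset spread between libraries, independent features and fewer changed features than passed here. Its shares are thus not the power of the fits on these data. Distances used exact permutation tests (scipy 1.17.1). Named genes were all members and the protein-coding genes in the 5 partner bins with the most read pairs per stage. List genes past the threshold or among the 3 smallest p, and the 3 most similar genes per member, were named too. Chd3, Chd4, Gatad2a, Gatad2b, Mta2, Mta3, Rbbp4, Tox3, Cyld and the genes without interactions were named after their values were seen. Members and lists were chosen with earlier results of these data known. Replicates of a stage differed by more than counting noise (chi-square 1.34 and 1.93 times its degrees of freedom). That check used contacts averaging at least 40 read pairs (1268 at E12.5 and 2234 at E16.5), not gene body numbers. Coordinates are 1-based. The label of 1 fetal library carries a protocol text on adult cortex; its stage and tissue labels were followed. The result of 1 marker list is not reported here.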

Additional observations from a re-analysis of the deposited data

How the results depend on the processing

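The count of gene bodies past the threshold was 584 of 4036 and depended on the settings. It was 105 of 4036 with DESeq2 1.42.0 and 159 of 1901 with distances of at most 200 kb. With lists of equal length it was 262 of 2521 (171 higher and 91 lower, against 443 and 141). By edgeR it was 0 of 1518 with clusters counted once (181 with an unadjusted p under 0.05) and 0 of 4036 with read pairs summed (993). Leaving out 1 library gave 0 to 390 (the 0 without E12.5 replicate 1, with 747 under an unadjusted p of 0.05). With the replicate number as a block (replicate block) 370 passed; the labels do not say that numbers pair libraries, and deviations of same-numbered libraries correlated at 0.0889 over gene bodies and 0.126 over contacts. The Sall1 log2 change kept its sign in every setting run, at -0.97 with DESeq2, -0.29 with clusters counted once, -1.53 with read pairs summed and -1.24 to -0.79 with 1 library left out; it passed with the replicate block (-1.01, adjusted p = 0.0258). Sall4 passed with the library total alone (-2.44) and in no other setting run. The count of contacts past the threshold, 719, was 98 with DESeq2, 18 with the expected offset, 406 where contacts averaged 40 read pairs or more and 274 to 537 with 1 library left out. The 9 lower Sall contacts became 2 with DESeq2, 0 with the expected offset, 4 of 5 under that limit, 10 with the replicate block and 3 to 6 with 1 library left out. The contact at 270 kb from the Sall1 start bin turned from -0.78 to 0.0414 with the expected offset. The difference in Sall1 median distance turned to -37.5 kb with lists of equal length. The causes were not tested. Sall1 and Sall3 gave no value with distances of at most 200 kb, Sall3 and Sall4 none with clusters counted once, and Sall4 none with a sum of at least 20 or DESeq2. Numbers of 0 to 7 interactions, as for Sall2, Sall3 and Sall4, limit what can be seen, and the unknown depth leaves unlisted pairs without a bound.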
